A study of Homo sapiens with 12 samples.

Results

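The genes described here are 39 components of the human DNA replication fork and of the enzymes that supply it with deoxynucleotides. They were taken by name and sorted into 10 role groups, from polymerase alpha and primase to the fork protection proteins. On the Affymetrix U133 Plus 2.0 array (AFFX), 39 of the 19777 genes measured were members, with 71 probe sets that the annotation assigns to 1 gene. On the Applied Biosystems Human Genome Survey Microarray (ABI), 37 of 17192 genes were members, with 41 such probes. The ABI probes annotated to PRIM1 and RRM2 are also annotated to another gene, so these members were not measured on ABI. Among the 16186 genes shared by both platforms, 37 were members.

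The cells were A2780, an established human ovarian carcinoma line. Control cells were untreated, and treated cells had received 3 µM of a cell cycle inhibitor for 6 hours. The compound is not named. Each condition was measured on 3 AFFX and 3 ABI arrays, 12 arrays in all. All arrays of a condition carried aliquots of 1 RNA pool, prepared from the attached cells of 3 pooled biological replicates, so each p-value below measures technical spread and compares 2 pools. In such bulk RNA, fewer cells in a given phase of the cell cycle and less transcript per cell cannot be told apart.

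At the replication fork, the CDC45, MCM and GINS helicase unwinds the template after the kinase CDC7 and its activator DBF4 have switched it on. Polymerase alpha with primase starts each strand, RPA coats the exposed single strand, the clamp loader RFC places the PCNA ring on DNA, and polymerases epsilon and delta extend the leading and the lagging strand. FEN1 and LIG1 finish the Okazaki fragments, CHAF1 deposits histones behind the fork, TIMELESS and TIPIN hold the fork together, and ribonucleotide reductase, thymidylate synthase and thymidine kinase make the building blocks. Transcription of many of these genes is known to rise before S phase under E2F factors.

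AFFX signals are given as the deposited log2 values, and ABI signals as log2 of the deposited values. The ABI scale is not stated, and it was read as linear because the values run from 0.03 to 2685. Arrays of the same group correlated with r of at least 0.9939 on AFFX and at least 0.9695 on ABI. The median SD of a member over 3 arrays was 0.0909 on AFFX and 0.113 on ABI, both on the log2 scale. The bacterial hybridisation controls on AFFX, RNAs added to each sample before hybridisation, read 0.42 higher on the log2 scale in the treated arrays, and their part in the AFFX changes was not tested. Markers of ovarian carcinoma and epithelium were mixed. On AFFX 4 of the 8 (PAX8, KRT7, KRT8 and KRT18) lay above the 60th percentile of all probe sets, with control means from 5.93 to 7.65, whereas on ABI 0 of the 8 did. EPCAM and CDH1, which define epithelium, had mean control log2 signals of 4.23 and 4.17 on AFFX and -0.15 and -2.54 on ABI. The 7 leukocyte markers measured had a median control level of 4.81 on AFFX and -0.98 on ABI. Of these, CD79A lay at the 72.3rd percentile on AFFX and the 29.8th on ABI. For the 8 ovarian carcinoma and epithelial markers the medians were 5.08 and -0.02. The 7 fibroblast and endothelial markers had higher medians, of 5.91 and 1.74. Among them COL1A2 lay at the 98.5th percentile on AFFX and the 91.4th on ABI.

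Replication fork genes split after exposure to the inhibitor. A call required at least 1.5-fold and an adjusted p under 0.05 in limma. By this rule 12 of the 37 shared members fell on AFFX and on ABI. They were POLD3, POLE2, POLE3, RFC1, RFC3, RFC4, FEN1, GINS3, CDC7, DBF4, CHAF1A and TIPIN. That is 32.4% of the members, where 10.5% of all shared genes were lower on both platforms. No member was higher on both, where 0.42% of all shared genes were, and no member was called in opposite directions.

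On AFFX alone, 13 of 39 members were lower (33.3%, against 14.2% of all genes), and 3 were higher (7.69%, against 2.49% of all genes). On ABI, 13 of 37 members were lower (35.1%, against 14.8% of all genes) and 0 were higher (against 6.31% of all genes). With no limit on the fold, 9 members were higher on AFFX (against 33.1% of all genes) and 2 on ABI (against 8.41% of all genes). The median log2(Fold Change) over all members was -0.13 on AFFX, beside 0.16 over all genes, and -0.01 on ABI, beside 0.09 over all genes. The 12 members lower on both platforms had a median of -1.01 on AFFX and -1.38 on ABI, whereas the other 25 members measured on both had medians of 0.21 and 0.11. These last medians describe a division made by the calls themselves.

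**Figure D1:**
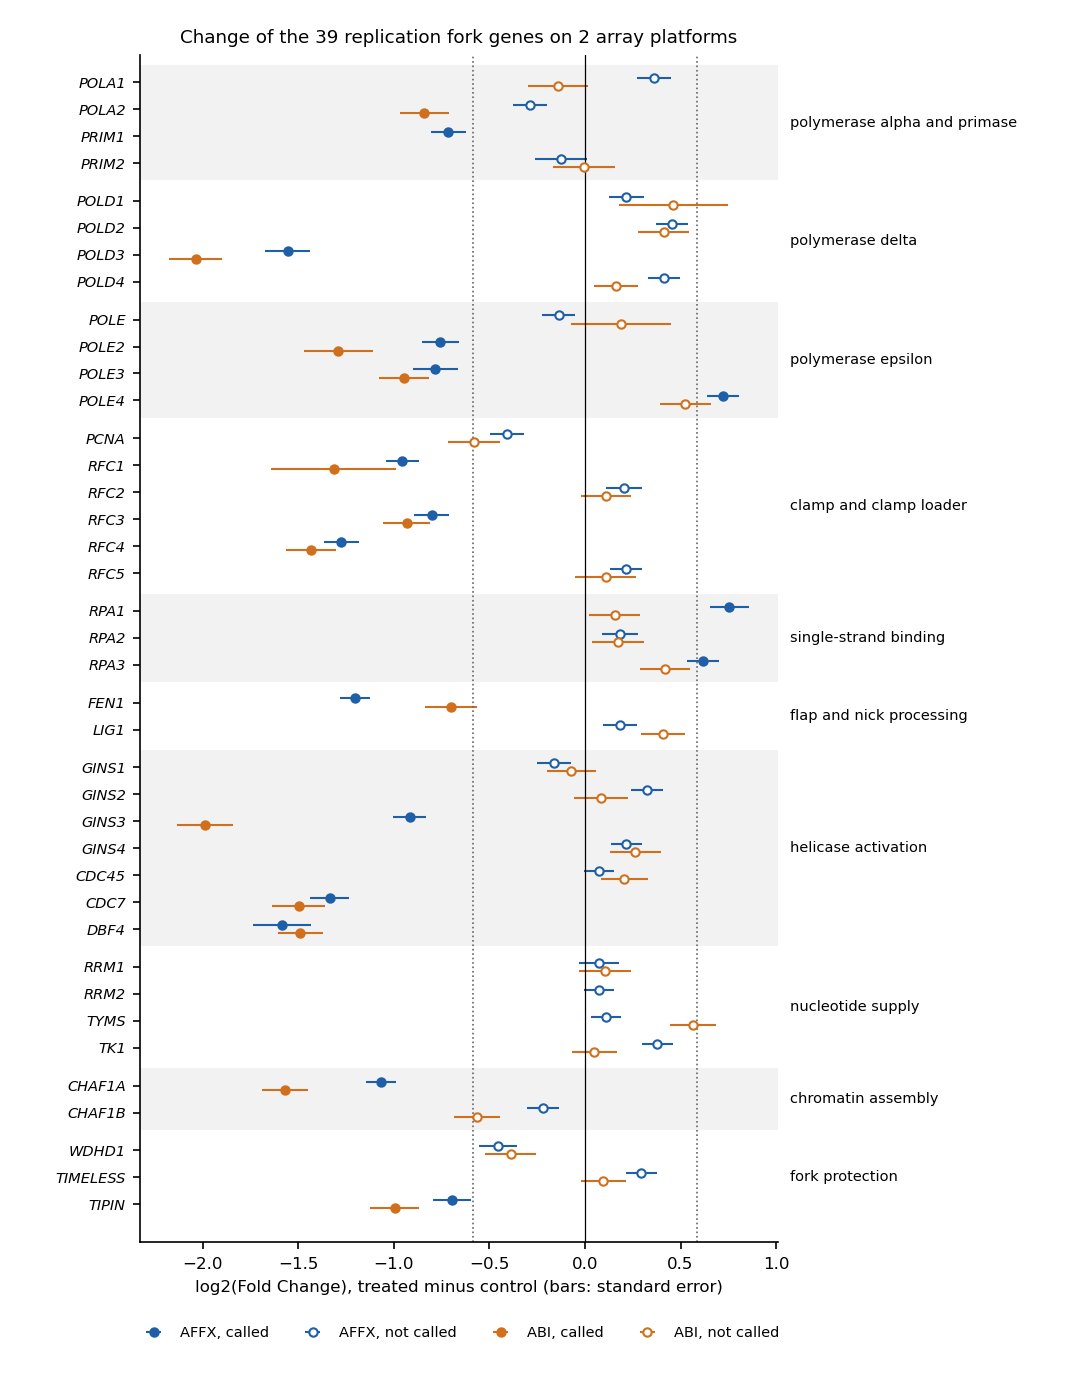
Horizontal axis, log2(Fold Change) of each of the 39 members (treated minus control), with standard errors as bars and dotted lines at 1.5-fold. Filled points were called, and they lie to the left of the lines except for POLE4, RPA1 and RPA3 on AFFX, so that within most role groups some members fell and others did not.

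In the polymerase alpha and primase group the catalytic primase subunit PRIM1 fell on AFFX, and the polymerase accessory subunit POLA2 fell on ABI. PRIM1 gave log2 signals of 9.28, 9.09 and 9.17 in the control arrays and 8.53, 8.52 and 8.34 in the treated arrays of AFFX. Every treated array lay below every control array, with a log2(Fold Change) of -0.71 ± 0.09 (SE) and an adjusted p of 0.000133. POLA2 on ABI gave 4.61, 4.59 and 4.62 in control and 3.92, 3.68 and 3.69 in treated arrays, also without overlap. Its change there was -0.84 ± 0.13 (adjusted p = 0.0102), while on AFFX it was -0.29 ± 0.09 (adjusted p = 0.0258), under the fold limit. The change of POLA2 differed between the platforms by -0.55 ± 0.13 (ABI minus AFFX, interaction adjusted p = 0.021). POLA1, the catalytic subunit, had values of 0.36 ± 0.09 on AFFX (adjusted p = 0.00997) and -0.14 ± 0.16 on ABI (adjusted p = 0.59). PRIM2, the large primase subunit, had -0.13 ± 0.13 and -0.01 ± 0.16 and passed on neither platform.

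Among the 4 subunits of polymerase delta, the lagging strand polymerase, POLD3 alone was called on either platform. POLD3, an accessory subunit that binds PCNA, gave AFFX log2 signals of 9.15, 8.96 and 8.86 in control and 7.46, 7.63 and 7.22 in treated arrays. On ABI it gave 5.35, 5.23 and 5.02 in control and 3.16, 3.21 and 3.11 in treated arrays. The groups were far apart on both platforms, and the change was the largest fall of any member on ABI. POLD3 fell by 2.94-fold on AFFX (log2(Fold Change) -1.56 ± 0.12, adjusted p = 2.05e-06) and by 4.11-fold on ABI (-2.04 ± 0.14, adjusted p = 0.000973). The catalytic subunit POLD1 had values of 0.22 ± 0.09 on AFFX and 0.46 ± 0.28 on ABI. The second subunit POLD2 had values of 0.46 ± 0.09 on AFFX (adjusted p = 0.00195) and 0.41 ± 0.14 on ABI (adjusted p = 0.0877). The small subunit POLD4 had 0.41 ± 0.09 on AFFX (adjusted p = 0.0034) and 0.16 ± 0.11 on ABI.

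Polymerase epsilon, which extends the leading strand, divided in the same manner. POLE2, the subunit that holds the catalytic chain, gave 9.46, 9.21 and 9.24 in control and 8.61, 8.61 and 8.41 in treated AFFX arrays. Its ABI log2 signals were 3.90, 3.72 and 3.69 in control and 2.77, 2.22 and 2.44 in treated arrays. There was no overlap on either platform, and the change was -0.76 ± 0.10 on AFFX (adjusted p = 0.000159) and -1.29 ± 0.18 on ABI (adjusted p = 0.00813). The histone-fold subunit POLE3 gave 9.85, 9.73 and 9.51 in control and 9.00, 9.04 and 8.70 in treated AFFX arrays. On ABI its signals were 3.68, 3.40 and 3.45 in control and 2.58, 2.57 and 2.53 in treated arrays. POLE3 was thus lower in all treated arrays, by -0.79 ± 0.12 on AFFX (adjusted p = 0.000447) and -0.95 ± 0.13 on ABI (adjusted p = 0.00787).

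POLE4, the histone-fold partner of POLE3, moved the other way. Its AFFX log2 signals were 8.37, 8.25 and 8.31 in control and 9.11, 9.00 and 8.98 in treated arrays. On ABI they were 4.82, 4.68 and 4.66 in control and 5.39, 5.19 and 5.15 in treated arrays. All treated arrays were above all control arrays. The change was 0.72 ± 0.08 on AFFX (1.65-fold, adjusted p = 6.11e-05) and 0.53 ± 0.13 on ABI (1.44-fold, adjusted p = 0.0446), the latter just under the fold limit. When AFFX arrays were centred on ribosomal protein genes POLE4 had a value of 0.56, and when they were centred on the hybridisation controls it had 0.30 (adjusted p = 0.199), and neither was called. The catalytic subunit POLE had values of -0.14 ± 0.09 on AFFX and 0.19 ± 0.26 on ABI and was not called.

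The clamp loader RFC is a ring of 5 subunits, and 3 of them fell on both platforms. RFC4 gave 10.60, 10.48 and 10.44 in control and 9.28, 9.33 and 9.09 in treated AFFX arrays. Its ABI signals were 7.47, 7.41 and 7.25 in control and 6.06, 5.88 and 5.90 in treated arrays. Here the spread within a group was small beside the gap between groups, and RFC4 fell by 2.42-fold on AFFX (-1.27 ± 0.09, adjusted p = 1.54e-06) and by 2.70-fold on ABI (-1.44 ± 0.13, adjusted p = 0.00207). RFC3 gave 8.39, 8.29 and 8.35 in control and 7.56, 7.65 and 7.41 in treated AFFX arrays. On ABI it gave 4.87, 4.75 and 4.94 in control and 3.90, 4.01 and 3.85 in treated arrays. The groups of RFC3 did not overlap, with changes of -0.80 ± 0.09 (adjusted p = 4.68e-05) and -0.93 ± 0.13 (adjusted p = 0.00717).

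RFC1, the large subunit of the replicative clamp loader, spread little over the arrays on AFFX and widely on ABI. Its AFFX signals were 8.63, 8.56 and 8.48 in control and 7.65, 7.62 and 7.53 in treated arrays, a change of -0.96 ± 0.08 (adjusted p = 6.94e-06). Its ABI signals were 3.21, 2.53 and 2.09 in control and 0.99, 1.54 and 1.36 in treated arrays, a change of -1.32 ± 0.33 (adjusted p = 0.0418). The treated arrays were again all below the controls, but the ABI control arrays spread over more than 1 log2 unit. The ABI call was lost when control array 1 (-1.01, adjusted p = 0.0686) or 2 (-1.36, 0.109), or treated array 1 (-1.16, 0.111), 2 (-1.44, 0.0828) or 3 (-1.35, 0.1) was left out. It was also lost under quantile normalization (-1.09, adjusted p = 0.0615), under the methods' t-test and with the replicate number as a block. The AFFX call was lost with the mean of all probes (-0.49), at a 2-fold limit and without probe sets ending in _x_at or _s_at (0.10).

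PCNA, the sliding clamp itself, was lower on both platforms but under the fold limit on both. Its log2(Fold Change) was -0.41 ± 0.09 on AFFX (1.33-fold, adjusted p = 0.00476) and -0.58 ± 0.14 on ABI (1.49-fold, adjusted p = 0.0367). Under quantile normalization of ABI the PCNA value there was -1.09 (adjusted p = 0.00507), which was called lower. The small clamp loader subunits RFC2 and RFC5 had values of 0.21 ± 0.09 and 0.21 ± 0.08 on AFFX and 0.11 ± 0.13 and 0.11 ± 0.16 on ABI, and none of the 4 values passed.

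The single-strand binding complex RPA did not fall. RPA1, the large subunit, was called higher on AFFX through its probe set with the lowest p, with signals of 5.85, 5.80 and 5.85 in control and 6.38, 6.73 and 6.66 in treated arrays. These groups did not overlap, and the change was 0.76 ± 0.10 (adjusted p = 0.000203). The other 2 RPA1 probe sets gave 0.15 ± 0.09 and 0.12 ± 0.08 and were not called. They were far brighter, with control means of 10.37 and 10.12 beside 5.84 for the called set. On ABI the probe gave 0.16 ± 0.13 (adjusted p = 0.473). The RPA1 value differed between the platforms by -0.60 ± 0.16 (interaction adjusted p = 0.0299). With AFFX arrays centred on the hybridisation controls it turned to -0.27, through another of its sets. RPA3, the small subunit, gave 9.83, 9.72 and 9.70 in control and 10.36, 10.45 and 10.29 in treated AFFX arrays, and on ABI 3.37, 3.18 and 3.11 against 3.70, 3.66 and 3.56.

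All treated arrays of RPA3 lay above the controls. The change was 0.62 ± 0.09 on AFFX (adjusted p = 0.000241) and 0.42 ± 0.13 on ABI (adjusted p = 0.0777), and without AFFX treated array 2 the former was 0.58, under the fold limit. It was also under the limit with AFFX arrays centred on their median (0.56), on the ribosomal protein genes (0.46) or on the hybridisation controls (0.20). RPA2, the middle subunit, had 0.18 ± 0.09 on AFFX and 0.17 ± 0.14 on ABI, with overlapping groups on both.

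For the processing of Okazaki fragments, the flap nuclease FEN1 fell and DNA ligase LIG1 was not called. FEN1 gave 10.29, 10.16 and 10.27 in control and 9.01, 9.08 and 9.02 in treated AFFX arrays. Its ABI signals were 7.47, 7.23 and 7.30 in control and 6.52, 6.61 and 6.76 in treated arrays. The fall was clear of the array spread on both platforms but not of equal size. FEN1 changed by -1.20 ± 0.08 on AFFX (adjusted p = 8.36e-07) and by -0.70 ± 0.14 on ABI (adjusted p = 0.0221), a difference of 0.50 ± 0.13 (interaction adjusted p = 0.0304). The ABI call of FEN1 was lost when control array 1 (-0.63, adjusted p = 0.0621), 2 (-0.75, 0.0616) or 3 (-0.72, 0.0687), or treated array 1 (-0.65, 0.0664) or 2 (-0.69, 0.0734) was left out. LIG1 had values of 0.18 ± 0.09 on AFFX and 0.41 ± 0.12 on ABI (adjusted p = 0.0593).

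In the group that activates the helicase, the kinase CDC7, its activator DBF4 and the helicase subunit GINS3 fell on both platforms. CDC7 gave 8.78, 8.63 and 8.60 in control and 7.44, 7.41 and 7.15 in treated AFFX arrays. Its ABI signals were 4.92, 4.79 and 4.64 in control and 3.39, 3.29 and 3.18 in treated arrays. Control and treated arrays were more than 1 log2 unit apart on each platform. CDC7 fell by 2.53-fold on AFFX (-1.34 ± 0.10, adjusted p = 2.04e-06) and by 2.83-fold on ABI (-1.50 ± 0.14, adjusted p = 0.00207). DBF4 gave 8.30, 8.41 and 8.02 in control and 6.70, 6.95 and 6.31 in treated AFFX arrays, and on ABI 4.56, 4.45 and 4.43 against 2.92, 3.04 and 3.01.

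DBF4 was the member with the largest fall on AFFX, by 3.00-fold (-1.59 ± 0.15, adjusted p = 1.5e-05), and it fell by 2.81-fold on ABI (-1.49 ± 0.12, adjusted p = 0.00137). A separate ABI probe for DBF4 gave -1.43 ± 0.13 (adjusted p = 0.00182). GINS3 gave 7.84, 7.87 and 7.83 in control and 6.99, 6.98 and 6.80 in treated AFFX arrays. On ABI it gave 3.18, 3.10 and 2.92 in control and 1.09, 0.91 and 1.24 in treated arrays. The ABI gap was the wider of the pair. GINS3 changed by -0.92 ± 0.09 on AFFX (adjusted p = 1.1e-05) and by -1.99 ± 0.15 on ABI (adjusted p = 0.00119), a difference of -1.07 ± 0.15 (interaction adjusted p = 0.00139).

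The partners of GINS3 in the helicase were not called on either platform. GINS1 had values of -0.16 ± 0.09 on AFFX and -0.07 ± 0.13 on ABI. GINS2 had 0.32 ± 0.09 on AFFX (adjusted p = 0.0127) and 0.08 ± 0.14 on ABI. GINS4 had 0.22 ± 0.08 and 0.26 ± 0.13. The helicase activator CDC45, which joins GINS on the MCM ring, had 0.07 ± 0.08 and 0.21 ± 0.12.

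None of the nucleotide supply enzymes was called on either platform. TK1, the thymidine salvage kinase, gave 8.48, 8.33 and 8.43 in control and 8.79, 8.77 and 8.81 in treated AFFX arrays, and on ABI 3.99, 3.85 and 3.86 against 3.89, 4.01 and 3.94. Its groups were apart on AFFX and overlapped on ABI, with values of 0.38 ± 0.08 (1.30-fold, adjusted p = 0.00435) and 0.05 ± 0.12 (adjusted p = 0.812). TYMS, thymidylate synthase, gave 11.70, 11.65 and 11.72 in control and 11.80, 11.80 and 11.79 in treated AFFX arrays, and on ABI 9.29, 9.33 and 9.45 against 9.85, 9.94 and 9.98. Both sets were free of overlap, but the gap was small on AFFX, at 0.11 ± 0.08 (adjusted p = 0.281), and larger on ABI, at 0.57 ± 0.12 (1.48-fold, adjusted p = 0.0279). The TYMS values differed by 0.46 ± 0.11 (interaction adjusted p = 0.0185). Under quantile normalization of ABI the TYMS value there was -0.05 (adjusted p = 0.82). With arrays centred on ribosomal protein genes it was 0.01 on ABI and -0.41 on AFFX. RRM1, the large subunit of ribonucleotide reductase, had 0.07 ± 0.11 on AFFX and 0.10 ± 0.14 on ABI, and RRM2, its small subunit, had 0.07 ± 0.08 on AFFX.

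The large subunit of chromatin assembly factor 1, CHAF1A, fell on both platforms. Its AFFX log2 signals were 8.68, 8.70 and 8.77 in control and 7.69, 7.63 and 7.63 in treated arrays. On ABI they were 5.37, 5.21 and 5.19 in control and 3.74, 3.63 and 3.68 in treated arrays. The groups were far apart, with changes of -1.07 ± 0.08 on AFFX (adjusted p = 1.8e-06) and -1.57 ± 0.12 on ABI (adjusted p = 0.00128), which differed by -0.51 ± 0.11 (interaction adjusted p = 0.0137). CHAF1B, the middle subunit, had -0.22 ± 0.09 on AFFX (adjusted p = 0.0624) and -0.57 ± 0.12 on ABI (1.48-fold, adjusted p = 0.0287), under the fold limit.

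Of the fork protection proteins, TIPIN fell and its partner TIMELESS did not. TIPIN gave 8.30, 8.20 and 8.17 in control and 7.44, 7.72 and 7.41 in treated AFFX arrays. Its ABI signals were 5.15, 5.02 and 4.91 in control and 4.11, 3.99 and 3.99 in treated arrays. Every treated array was below every control array, with changes of -0.70 ± 0.10 (adjusted p = 0.000327) and -1.0 ± 0.13 (adjusted p = 0.0063). TIMELESS had values of 0.30 ± 0.08 on AFFX (adjusted p = 0.0171) and 0.10 ± 0.12 on ABI (adjusted p = 0.617). WDHD1, which links polymerase alpha to the helicase, had -0.45 ± 0.10 on AFFX (1.37-fold, adjusted p = 0.00521) and -0.39 ± 0.13 on ABI (adjusted p = 0.0976).

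**Figure D2:**
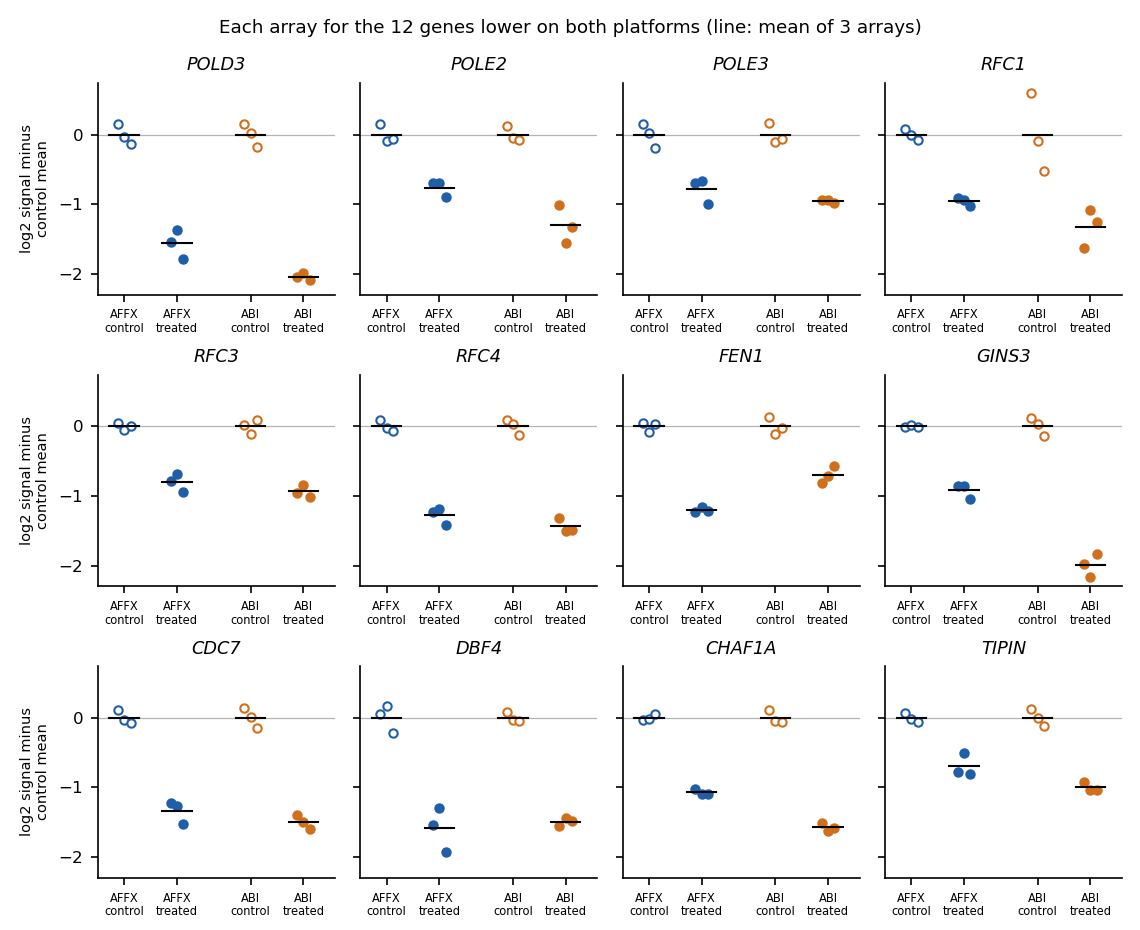
Log2 signal of each array minus the mean of the 3 control arrays of its platform, for the 12 members lower on both platforms. Open points are control and filled points treated arrays, blue for AFFX and orange for ABI, and in all 12 panels the treated arrays lie below the controls, with the widest control spread in RFC1 on ABI.

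Members of the same role group were then compared with each other. In each of the 10 role groups, the member with the lowest and the member with the highest AFFX change were paired, among members measured on both platforms, and the pair was then compared on ABI, whose signals had no part in that choice although its arrays carried the same RNA. On ABI the change of POLD3 lay 2.45 ± 0.05 (SE) below that of POLD2 on the log2 scale, that of DBF4 1.57 ± 0.10 below GINS2, and that of RFC4 1.54 ± 0.06 below RFC5. POLE3 lay 1.47 ± 0.08 below POLE4, FEN1 1.11 ± 0.12 below LIG1 and TIPIN 1.09 ± 0.06 below TIMELESS. CHAF1A lay 1.01 ± 0.09 below CHAF1B and POLA2 0.70 ± 0.15 below POLA1. In these 8 pairs the arrays were completely separated, which in a 2-sided exact permutation test gives p = 0.1, the smallest that 3 arrays against 3 allow, and 0.125 after Benjamini-Hochberg adjustment over the 10 pairs. The order seen on AFFX was not kept for RPA2 and RPA1 (0.02 ± 0.09, exact p = 0.9) or for RRM1 and TK1 (0.05 ± 0.07, exact p = 0.6).

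Both platforms were also compared directly, as the interaction of platform and treatment in limma. The change differed for 6 of the 37 members (16.2%), POLA2, RPA1, FEN1, GINS3, TYMS and CHAF1A, which is near the 15.1% of all shared genes that differed. The test took the AFFX probe set that stood for each gene. Another AFFX set of CHAF1A (-1.55) and of FEN1 (-0.71) lay near their ABI values (-1.57 and -0.70). Among the 12 members lower on both platforms, 10 had the larger fall on ABI, and FEN1 and DBF4 had it on AFFX. POLA1 and POLE had values of opposite sign on the 2 platforms, and neither was called.

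**Figure D3:**
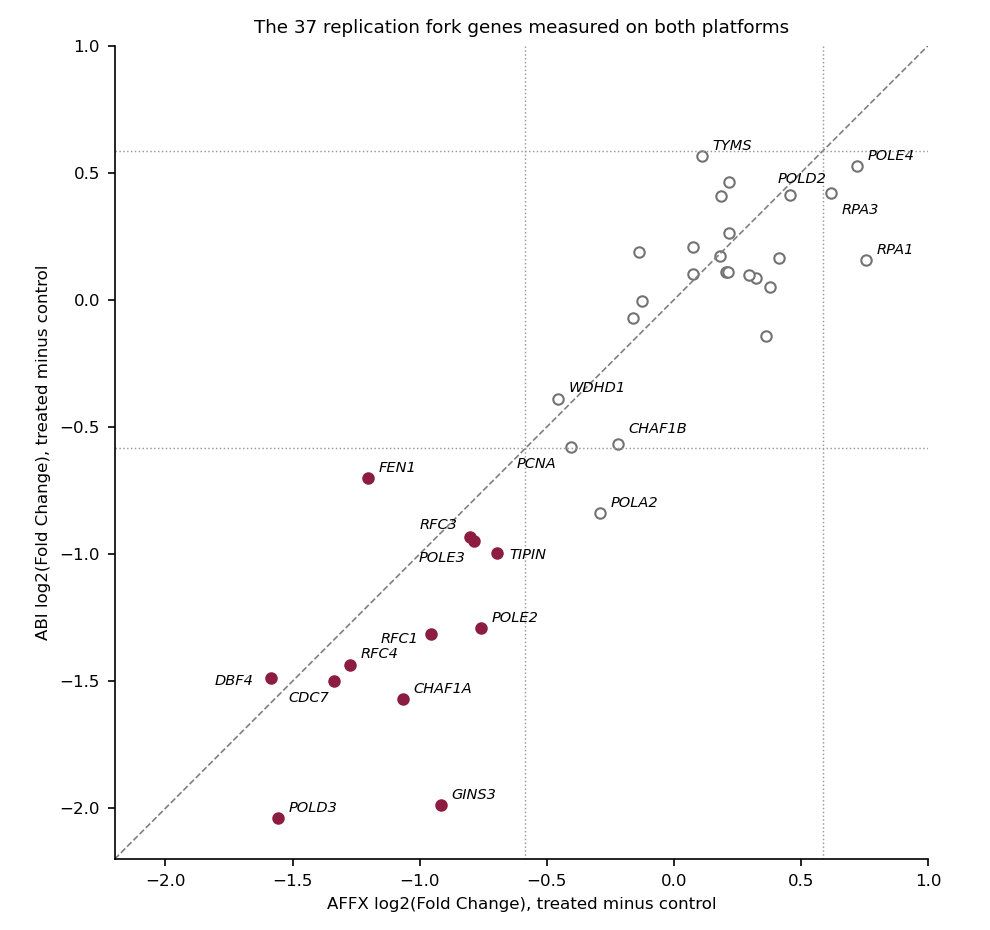
ABI against AFFX log2(Fold Change), treated minus control, for the 37 members measured on both platforms, with the line of equal change dashed and 1.5-fold dotted. The 12 filled members lie in the lower left corner, FEN1 above the dashed line and GINS3 farthest below it, while the 25 open members lie between -0.45 and 0.76 on AFFX and between -0.84 and 0.57 on ABI, with POLA2 below the ABI limit alone.

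On AFFX, 19 members had several probe sets, of which the one with the lowest p stood for the gene. Probe sets of the same member differed in their call for 6 of these 19 and in sign for 8, but no member had probe sets called in opposite directions. For POLD3 the probe set that stood for the gene gave -1.56, whereas the other set gave 0.36 ± 0.09 (adjusted p = 0.0109, 1.5-fold not reached). Their control means were 8.99 and 6.47, where the AFFX control arrays had medians of 5.37 to 5.41. For RFC1 a pair of sets fell (-0.96 and -0.61, control means 8.56 and 8.33), and the third, with a control mean of 4.54, gave 0.10 ± 0.08. For RFC3 the sets gave -0.80, -0.54 and 0.03, with control means of 8.34, 9.69 and 6.42. The set at -0.54 passed the adjusted p (0.00119) but not the fold limit. The AFFX call of RFC3 depended on the choice of probe. It was lost with the set of highest signal (-0.54), with the mean of all probes (-0.44) and without sets ending in _x_at or _s_at.

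CHAF1A had 4 probe sets, of which 3 fell (-1.07, -0.59 and -1.55) and the fourth gave -0.07 ± 0.08. Control means were 8.72, 8.62 and 9.05 for the 3 sets and 4.26 for the fourth. Both sets of FEN1 fell (-1.20 and -0.71), as did both sets of GINS3 (-0.92 and -1.23). Of the POLE4 sets 2 rose (0.72 and 0.66), and the third gave 0.16 ± 0.10. GINS4 had sets at 0.22 and 0.20 and others at -0.56 ± 0.17 (adjusted p = 0.0236) and -0.25 ± 0.09 (adjusted p = 0.0405), none past the fold limit. POLA2 (-0.29, 0.26 and 0.07), RRM1 (0.07 and -0.02), RRM2 (0.07 and -0.13) and TYMS (0.11, 0.11 and -0.25) also had sets of both signs without a call. On ABI, where 4 members had several probes, no probes disagreed in call or sign.

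**Figure D4:**
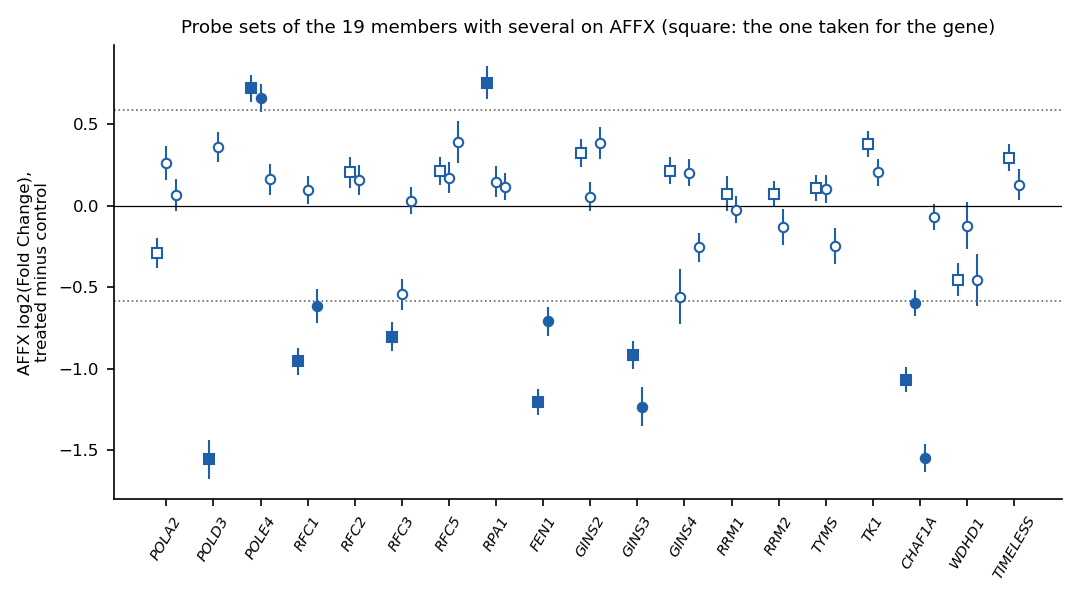
AFFX log2(Fold Change), treated minus control, of every probe set of the 19 members with several, with standard errors as bars and dotted lines at 1.5-fold. Filled symbols were called and squares stood for the gene, and POLD3, RFC1, RFC3 and CHAF1A each have a set near or above 0 beside those that fell.

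The 12 members lower on both platforms lay on 11 chromosomes, with POLD3 and FEN1 both on chromosome 11. In GRCh38.p14, POLD3 spans bases 74592582 to 74669341 and FEN1 bases 61792911 to 61797238 of that chromosome. Their median gene span was 38.9 kb (3.52 to 159 kb), beside 33.6 kb (2.83 to 425 kb) for the other 25 members measured on both platforms.

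Promoter windows of RefSeq, from 250 bases before to 50 bases after a transcript start in GRCh38.p14, were at hand for 35 of the 39 members (all but POLD3, RPA2, RPA3 and GINS4) and for 27305 genes in all. E2F-type sites (TTTCGCGC, TTTGGCGC, TTTCCCGC or TTTGCCGC, on either strand) were found for 14 of the 35 members (40%), beside 3.99% of all genes. They were found for 5 of the 11 members lower on both platforms, 9 of the other 22 measured on both and neither PRIM1 nor RRM2, so that the letters occurred on both sides of the split. CCAAT boxes were found for 3 of the 11, 14 of the 22, PRIM1 and RRM2, beside 39.7% of all genes. CHR elements (TTTGAA or TTCGAA) were found for 2 of the 11 and 1 of the 22, beside 19.5% of all genes. A TTTGGCGC site read on both strands can overlap itself, and such matches were counted once per gene. These matches are a description of letters and not of bound sites.

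The stretches below are a selection. They show such a site upstream of RFC3, which fell on both platforms, and of POLA2, which fell on ABI. Beside them are PCNA, under the fold limit in the calls above, POLE4, which rose on AFFX, and GINS2 and TYMS, which were not called. Other members with a site, among them POLA1, POLE and LIG1, are not shown. Capitals mark the site, and each stretch is given 5′ to 3′ on the strand of the gene.
RFC3, chr13:33818064-33818131, plus strand: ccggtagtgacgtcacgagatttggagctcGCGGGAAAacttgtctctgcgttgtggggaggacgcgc
POLA2, chr11:65261879-65261946, plus strand: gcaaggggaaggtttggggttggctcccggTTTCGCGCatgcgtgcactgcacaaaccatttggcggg
PCNA, chr20:5126644-5126711, minus strand: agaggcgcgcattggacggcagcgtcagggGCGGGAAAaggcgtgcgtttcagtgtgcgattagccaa
POLE4, chr2:74958582-74958642, plus strand: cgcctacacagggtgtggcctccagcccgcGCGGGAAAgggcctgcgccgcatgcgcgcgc
GINS2, chr16:85688955-85689015, minus strand: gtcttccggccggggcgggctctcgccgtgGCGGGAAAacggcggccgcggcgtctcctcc
TYMS, chr18:657584-657651, plus strand: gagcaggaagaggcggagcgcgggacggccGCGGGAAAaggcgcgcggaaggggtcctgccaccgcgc

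The same letters, GCGGGAAA, stood 55 bases before the start of RFC3, 59 before PCNA, 31 before POLE4, 31 before GINS2 and 39 before TYMS. These 5 genes had ABI log2(Fold Change) values of -0.93, -0.58, 0.53, 0.08 and 0.57, in that order. LIG1 held the same letters on the other strand, 114 bases before its start, and had an ABI value of 0.41. CDC7, lower on both platforms, held 2 separate matches, 68 and 34 bases before the start of the transcript in the table. TIPIN, also lower on both, held 2 matches 66 and 62 bases before the start. These overlap, being 1 site read on both strands.

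Other genes of DNA replication were examined in 4 further lists. Of all genes, 14.2% were lower on AFFX and 14.8% on ABI, and 10.5% of the shared genes were lower on both. Of the 16 genes of origin licensing and the helicase ring, 7 were lower on each platform and 6 on both, with medians of -0.42 on AFFX and -0.68 on ABI. Of these 6, the largest AFFX falls were those of CDC6 (-1.92 and -1.84) and CDT1 (-1.54 and -1.74), which load the MCM ring, and of ORC4 (-0.82 and -1.12), a subunit of the origin recognition complex. None of the ring genes MCM2 to MCM7 was called on either platform. Among other DNA polymerases, 6 of 15 were lower on AFFX and 8 of 14 on ABI, 6 of them on both, with medians of -0.52 and -0.86. These included REV3L (-1.60 and -1.59), the catalytic chain of translesion polymerase zeta, POLG2 (-1.45 and -1.55), an accessory subunit of the mitochondrial polymerase, and POLH (-1.11 and -1.24), a translesion polymerase.

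Among other replisome factors 3 of 20 were lower on AFFX (15%), near the 14.2% of all genes. On ABI 4 of 16 were lower (25%, against 14.8% of all genes). Lower on both were 2 of the 16, the histone chaperone ASF1A (-1.65 and -1.04) and the checkpoint adaptor TOPBP1 (-1.34 and -0.86). On AFFX 1 gene of that list was higher (5%, against 2.49% of all genes), RNASEH2C (0.69), a subunit of ribonuclease H2. Other nucleotide enzymes resembled the nucleotide supply members in that few were called. Lower were 2 of 27 on AFFX (7.41%, against 14.2% of all genes) and 2 of 25 on ABI (8%, against 14.8%). The medians were 0.14 and 0.09, and 1 gene was lower on both. That gene was UMPS (-1.67 and -2.25), which completes pyrimidine synthesis. On ABI 2 of the list were higher (8%, against 6.31% of all genes), DUT (0.73), which breaks down dUTP, and GUK1 (0.60), guanylate kinase, beside 0 on AFFX.

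**Figure D5:**
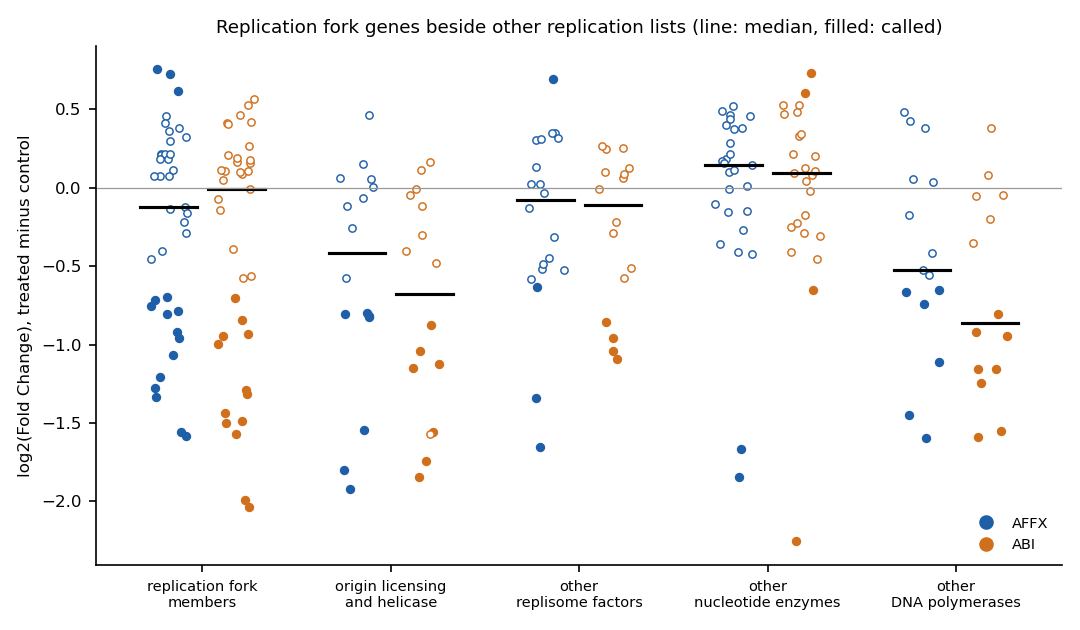
Treated minus control log2(Fold Change) for the 39 members and for 4 other lists of replication genes on AFFX (blue) and ABI (orange), with a black line at each median and filled points for called genes. The median of other DNA polymerases is the lowest, at -0.52 on AFFX and -0.86 on ABI, and that of other nucleotide enzymes the highest, at 0.14 and 0.09.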

How the data were processed

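The AFFX data were deposited by the authors as log2 values after RMA with quantile normalization, and the ABI data as intensity values after global median normalization, without detection flags and read here as linear from their range. RMA's version is not given in the sources used here. ABI intensities were turned to log2 here. Genes were named through the platform annotation. Probes of no gene or of several genes counted in the multiple testing correction and in nothing else. The 62 control probe sets of AFFX were left out.

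Treated and control arrays (3 against 3 per platform) were compared without pairing in limma 3.58.1 (R 4.3.3). P-values were adjusted by Benjamini-Hochberg over all 54613 AFFX probe sets or 33096 ABI probes. A call required an adjusted p under 0.05 and at least 1.5-fold. Where a gene had several probes, an equal-variance t-test was run on each and the probe of smallest p was taken, following the methods, which favours larger folds for these genes. The difference between platforms was fitted in limma over 16186 shared genes. Exact permutation tests used scipy 1.17.1.

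Alternatives were a block for the replicate number, other scalings, a filter on dim probes, other choices of probe, other fold limits, the methods' t-test and each array left out in turn. Centring on hybridisation controls was added after the data had been seen. The steps were tested on simulated data. The members and lists were chosen with earlier results of these data known. All members were named, with array values for those called alike on both platforms and for the largest change of each role group on either platform, and POLE4 was given array values after its values were seen. From each other list up to 3 genes called alike on both platforms were named, by AFFX change. RNASEH2C, DUT and GUK1 were added after their values were seen. The precision is limited by 3 technical arrays per group.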

Additional observations from a re-analysis of the deposited data

Results flagged for a closer look

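For 6 members the change on ABI differed from that on AFFX by the test of the difference itself, given here as ABI minus AFFX on the log2 scale. They are 16.2% of the 37 members on both platforms, near the 15.1% of all shared genes that differed. The test used 1 AFFX probe set per gene. GINS3 differed by -1.07 and CHAF1A by -0.51, both with the larger fall on ABI. Another AFFX set of GINS3 gave -1.23, beside -1.99 on ABI. Other AFFX sets of CHAF1A gave -0.59, -1.55 and -0.07, beside -1.57 on ABI. POLA2 differed by -0.55, past the fold limit on ABI alone. FEN1 differed by 0.50, with the smaller fall on ABI. Its other AFFX set gave -0.71, beside -0.70 on ABI. RPA1 differed by -0.60, with a rise called through 1 of its 3 AFFX probe sets, and TYMS differed by 0.46, with the larger value on ABI. Under quantile normalization of ABI the TYMS value there was -0.05. Groups of 3 arrays were not examined for single outlying arrays.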

How the results depend on the processing

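Of the members' calls, those of CDC7, DBF4, RFC4 and POLD3 were kept on both platforms under every alternative that gave a value. FEN1 and DBF4 had no AFFX value when probe sets ending in _x_at or _s_at were left out. That setting left 8 members lower on AFFX and 7 on both platforms, moved the AFFX median to 0.0138 and turned RFC1 to 0.10, the value of its remaining set. Over all genes it left 2158 lower on AFFX, beside 2804 in the calls above. Taking the mean of all probes left 1 member higher on AFFX, where 206 of 19777 genes were higher.

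With the replicate number as a replicate block, 8 members were lower on ABI and 3 differed between platforms. The share of all shared genes that differed is not given for this or the other alternatives. Of all 17192 ABI genes, 1499 were lower with that block, beside 2546 without it. Deviations of same-numbered control and treated arrays correlated at 0.075, 0.004 and 0.327 on AFFX and at 0.034, -0.007 and 0.072 on ABI, and not every array correlated best with its own number, so the numbers were not taken as pairs. Without a fold limit 9 members were higher on AFFX (against 33.1% of all genes), 2 on ABI (against 8.41% of all genes) and 1 on both. Counts on both platforms over all shared genes are not given for the alternatives. At 2-fold, 6 members were lower on AFFX, 8 on ABI and 5 on both, and 0 were higher on AFFX. Over all genes, 1619 of 19777 were then lower on AFFX and 1839 of 17192 on ABI, and 32 were higher on AFFX.

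Centring on ribosomal protein genes shifted the median of all genes by -0.24 on AFFX and -0.62 on ABI. Member medians were then -0.32 and -0.56 (-0.25 and -0.03 relative to all genes, beside -0.29 and -0.10 in the values above). This centring left 1 member higher on AFFX and gave 24 members that differed between platforms. It shifted all genes more on ABI than on AFFX, so that count cannot be read as a result about the members. On ABI this centring also called POLA1 (-0.70), PCNA (-1.14), GINS1 (-0.63), CHAF1B (-1.12) and WDHD1 (-0.95) lower, where 5270 of 17192 genes were lower. Centring AFFX on the hybridisation controls shifted all genes by -0.52, gave a member median of -0.55, left 0 higher and turned RPA1 to -0.27 through another of its probe sets. That centring also called POLA2 (-0.71), PCNA (-0.82), GINS4 (-0.98, through another of its sets), CHAF1B (-0.64) and WDHD1 (-0.87) lower. Over all genes 5258 of 19777 were then lower and 26 higher. Centring AFFX on array medians gave -0.22. Quantile normalization of ABI gave 2 members higher on ABI and 2 on both. Over all ABI genes 1469 of 17192 were then higher, and rises were 40% of all ABI calls. That scaling also called PCNA lower on ABI (-1.09) and no longer called RFC1. With each array left out in turn, the AFFX median ranged from -0.209 (without treated array 2) to 0.0287 (without treated array 3), and 3 (without AFFX treated array 2 or 3) to 7 members differed between platforms. The causes were not tested.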
